A study of Dendrobium officinale with 6 samples.

Results

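The enzymes of the photorespiratory cycle were followed in Dendrobium officinale, a medicinal orchid, between leaves and protocorm-like bodies (PLBs). The members were the unigenes, the assembled transcripts of the series, whose first listed KEGG ortholog was 1 of 10 enzymes of the cycle. These were phosphoglycolate phosphatase (PGP, K19269), glycolate oxidase (GOX, K11517), glutamate-glyoxylate aminotransferase (GGAT, K14272) and the P, T and H proteins of glycine decarboxylase (GDC-P, K00281; GDC-T, K00605; GDC-H, K02437). The others were serine hydroxymethyltransferase (SHMT, K00600), serine-glyoxylate aminotransferase (SGAT, K00830), hydroxypyruvate reductase 1 (HPR1, K15893) and glycerate kinase (GLYK, K15918). They numbered 126 of 157901 unigenes, or 10 of 4137 first orthologs, and an ortholog here stands for the sum of its unigenes. Member lengths ran from 256 to 19625 bp with a median of 1643 bp, and 113 members carried an annotation that names their enzyme.

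RNA-Seq libraries were made from 3 leaf samples and 3 PLB samples. Leaves came from the original plants, grown in a greenhouse. PLBs, bodies of protocorm-like tissue grown in culture, were induced from seed. The labels give their medium as 1/2 MS with 100 g/L potato juice, 1.5 to 2.0 mg/L 2,4-D, 1.0 mg/L 6-BA and 0.5 mg/L α-NAA, and their culture as 60 d at 1600 lx in 16 h light and 8 h dark and 70% relative humidity. The study's methods use potato juice media for propagation and state the 60 d and that humidity for induction on another medium, so the medium of the sequenced PLBs is not certain. Organ, place of growth, medium and light therefore differ together between the groups and cannot be told apart. The sources call the samples biological replicates without saying whether each came from its own plant or culture, so p-values measure the spread between these samples.

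Photorespiration begins when Rubisco fixes oxygen in place of carbon dioxide, which leaves 2-phosphoglycolate, a compound the Calvin cycle cannot use. The cycle carries its carbon through chloroplast, peroxisome and mitochondrion and returns glycerate to the chloroplast as 3-phosphoglycerate, with carbon dioxide and ammonia released in the mitochondrion. In green leaves of C3 plants it is one of the largest carbon flows beside photosynthesis, and the mitochondrial steps also supply serine and one-carbon units to tissues that do not photosynthesise.

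The libraries held 17602153 to 18408442 expected counts, which are reads assigned to unigenes with shared reads divided among contigs. Light-harvesting proteins, taken as markers of leaf mesophyll, were lower in PLBs for 10 of 10 tested orthologs, with a summed level of 19749 to 24027 TPM (a read share scaled to transcript length and to a fixed library sum) in leaf and 1006 to 2986 TPM in PLB libraries and no tested ortholog at 0. PLB replicate 3 was the lowest of them, at 1006 TPM against 2752 and 2986 TPM in replicates 2 and 1. Markers of dividing tissue, PCNA and the MCM helicase subunits, were higher in PLBs for 7 of 7 orthologs (77.1 to 79.3 TPM in leaf and 258 to 293 TPM in PLB libraries). By the same test, 38.6% of all tested orthologs were lower in PLBs and 37.2% were higher. Both marker lists moved with the groups, and their part in the results below was not tested. Unigenes whose closest protein match came from outside the orchids summed to 61340 to 62392 TPM in leaf and 55841 to 62209 TPM in PLB libraries, and 120 of the 126 members matched an orchid.

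All 10 enzymes of the cycle were lower in PLBs than in leaves. Together the members made up 0.875% to 0.924% of the expected counts in leaf libraries and 0.142% to 0.166% in PLB libraries. Their summed level was 7213 ± 177 TPM in leaves and 1275 ± 82.8 TPM in PLBs (SD, n = 3). In bulk tissue, fewer cells of a type and less RNA per cell cannot be told apart. At an adjusted p under 0.05 (edgeR quasi-likelihood test, Benjamini-Hochberg over 4103 orthologs) 38.6% of all orthologs were lower in PLBs and 37.2% were higher, so 10 of 10 lower and 0 of 10 higher stand against those shares. The median log2 fold change, PLB minus leaf, was -3.18 over the 10 enzymes and 0.01 over all tested orthologs. A fall of at least 1 on the log2 scale was found for 10 of 10 enzymes and for 17% of orthologs. In summed TPM the leaf range lay wholly above the PLB range for each enzyme, as it did for 26.8% of orthologs.

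**Figure D1:**
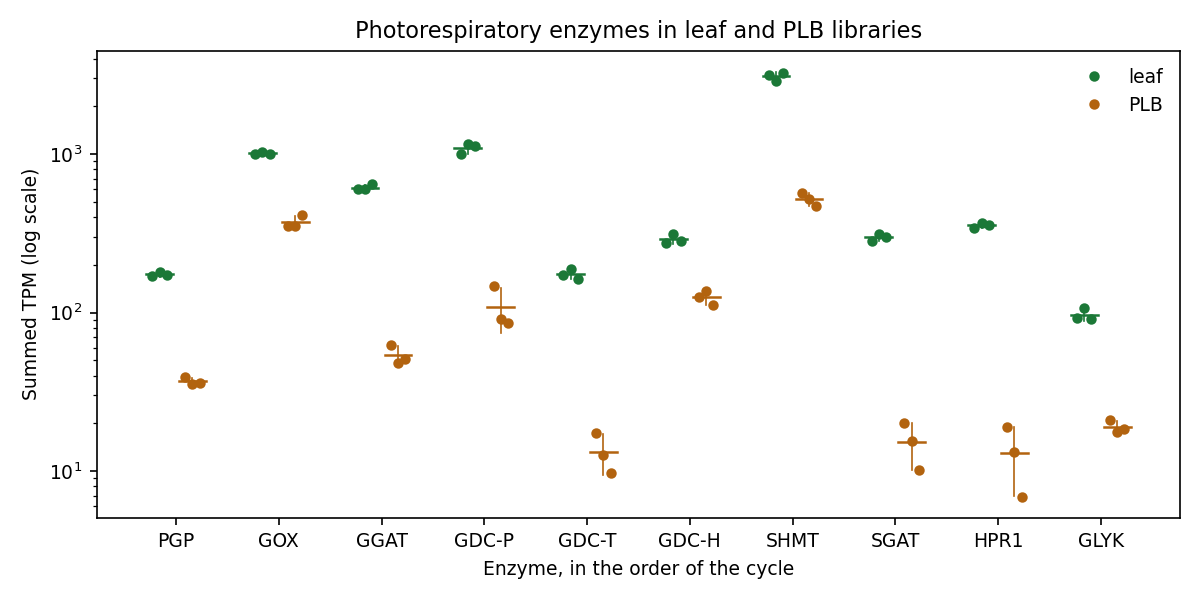
Summed TPM (log scale) of each of the 10 photorespiratory enzymes, in the order of the cycle, with 1 point per library (3 leaf, 3 PLB), a bar at the mean and a line of 1 SD. SHMT was highest in both tissues (3103 and 520 TPM), HPR1 fell from 354 to 12.99 TPM, and no PLB library reached a leaf library for any enzyme.

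The first step is taken in the chloroplast by PGP, which removes the phosphate from 2-phosphoglycolate. PGP stood at 169, 180 and 174 TPM in leaf replicates 1, 2 and 3 and at 39.0, 35.6 and 36.0 TPM in the PLB replicates. The groups were far apart and tight within themselves. In summed counts it dropped by 2.80 in log2 units (SE 0.08, adjusted p = 2.31e-07).

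GOX, a peroxisomal flavoprotein, oxidises glycolate to glyoxylate and releases hydrogen peroxide. Its ortholog held 994, 1027 and 1007 TPM in the leaf libraries and 350.0, 350 and 413 TPM in the PLB libraries. Its counts fell by 1.34 (SE 0.12, adjusted p = 2.18e-05). The 38 unigenes placed under this ortholog included 9 whose match in the NR protein database was a SLK or SEUSS transcriptional regulator, which is not an oxidase. These 9 rose by 0.62 as a group (SE 0.13, adjusted p = 0.0026), from 94.3 ± 1.50 TPM in leaves to 199 ± 37.5 TPM in PLBs (SD, n = 3), and took 9.34% of the ortholog's TPM in leaves but 53.4% in PLBs. Restricted to unigenes that name the enzyme and are at most 5000 bp long, a selection made after the data had been seen, GOX fell by 3.17 (SE 0.08, adjusted p = 1.67e-07).

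Both peroxisomal aminotransferases turn glyoxylate into glycine. GGAT, which takes the amino group from glutamate, stood at 598, 603 and 645 TPM in leaves and at 62.9, 48.2 and 50.7 TPM in PLBs, a fall by 3.20 (SE 0.16, adjusted p = 1.55e-06). SGAT, which takes it from serine and yields hydroxypyruvate, had 283, 312 and 301 TPM in leaves and 20.1, 15.4 and 10.1 TPM in PLBs. SGAT fell by 4.73 (SE 0.22, adjusted p = 1.16e-06). For GGAT, 1 contig of 5255 bp (CL14266.Contig8_All) in a cluster where 35 of 40 contigs carry another ortholog did not pass the unigene test, with 38.3, 38.4 and 39.9 TPM in leaves and 40.8, 19.7 and 33.1 TPM in PLBs. Without that contig GGAT fell by 5.12 (SE 0.25, adjusted p = 1.36e-06).

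Glycine decarboxylase is a mitochondrial complex in which the P protein removes carbon dioxide from glycine, the H protein carries the remaining group on its lipoyl arm, and the T protein hands a one-carbon unit to tetrahydrofolate and frees ammonia. GDC-P held 996, 1165 and 1125 TPM in leaves and 148, 91.7 and 85.6 TPM in PLBs and fell by 3.36 (SE 0.22, adjusted p = 4.72e-06). GDC-T held 172, 189 and 163 TPM in leaves and 17.3, 12.6 and 9.79 TPM in PLBs and fell by 4.13 (SE 0.19, adjusted p = 1.10e-06). GDC-H held 274, 312 and 283.8 TPM in leaves and 126, 137 and 112 TPM in PLBs and fell by 2.12 (SE 0.11, adjusted p = 1.61e-06). The 3 subunits were thus lower in every PLB library, by unequal amounts.

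The log2 ratio of summed TPM between subunits shows that inequality. P to T stood at 2.65 ± 0.13 in leaves and 3.03 ± 0.14 in PLBs (SD, n = 3; exact two-sided permutation p = 0.1). P to H went from 1.92 ± 0.06 to -0.24 ± 0.43 and T to H from -0.73 ± 0.06 to -3.28 ± 0.36, each with an exact permutation p of 0.1 and n = 3. These groups did not overlap, but 0.1 is the smallest p that 3 against 3 libraries allow (20 splits), and it became 0.1125 when adjusted over the 9 ratios computed.

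SHMT, the mitochondrial partner of the complex, joins a second glycine to the one-carbon unit to make serine. It was the most abundant member in both tissues, with 3156, 2889 and 3265 TPM in leaves and 566, 522 and 471 TPM in PLBs. Its counts fell by 3.16 (SE 0.11, adjusted p = 3.01e-07), and taking only the unigenes that name the enzyme and are at most 5000 bp long they fell by 3.45 (SE 0.11, adjusted p = 2.94e-07). Its 26 unigenes included 4 named for a PITH domain protein, which is not known as a hydroxymethyltransferase, and together these 4 held 4.12% ± 0.41 of the ortholog's TPM in leaves and 21.4% ± 2.41 in PLBs (SD, n = 3).

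The last steps return carbon to the chloroplast. HPR1, the peroxisomal enzyme that reduces hydroxypyruvate to glycerate with NADH, had 340, 365 and 358 TPM in leaves and 18.9, 13.2 and 6.90 TPM in PLBs. It fell by 5.26 (SE 0.31, adjusted p = 2.74e-06), the most of the 10, and 0.487% of all tested orthologs had a lower log2 fold change. When unigenes that list the ortholog in any place were summed, HPR1 fell by 3.55, less than SGAT, which fell by 4.72. GLYK, the chloroplast kinase that phosphorylates glycerate and closes the cycle, was the least abundant member in leaves, at 92.6, 107 and 91.6 TPM against 21.1, 17.6 and 18.4 TPM in PLBs. It fell by 2.85 (SE 0.09, adjusted p = 3.01e-07).

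The order of levels differed between the tissues. In leaves it ran from SHMT through GDC-P, GOX, GGAT, HPR1, SGAT, GDC-H, GDC-T and PGP to GLYK. GDC-P and GOX overlapped in their libraries there, as did SGAT and GDC-H, and GDC-T and PGP. HPR1 ranked 5 in leaves and 10 in PLBs, and GDC-H ranked 7 in leaves and 3 in PLBs. The PLB libraries of GDC-P and GDC-H overlapped, and those of HPR1, GDC-T and SGAT overlapped one another at the foot of the order. GLYK overlapped HPR1 and SGAT there but not GDC-T.

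Among the PLB libraries, replicate 3 had the lowest TPM of GDC-P, GDC-T, GDC-H, SHMT, SGAT and HPR1, and it was also the lowest in light-harvesting RNA, as given above. The part of those markers in that spread was not tested. Without this library HPR1 fell by 4.96 (adjusted p = 1.06e-06), SGAT fell by 4.51 (adjusted p = 1.01e-06) and GDC-T fell by 3.94 (adjusted p = 2.21e-06), and all 10 enzymes remained lower.

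Within 4 of the orthologs the unigenes carried names of different paralogues, and these did not move alike. The unigenes were split by protein names anywhere in their NR entry, which can list several proteins, and tested in the same fit (4114 features, of which 38.6% were lower and 37.3% higher in PLBs), a split chosen after the data had been seen. PGLP1-type unigenes, named for the chloroplast phosphatase of Arabidopsis, held 143, 156 and 147 TPM in leaves and 12.3, 10.9 and 9.29 TPM in PLBs, and fell by 4.07 (SE 0.11, adjusted p = 1.59e-07). PGLP2-type unigenes, named for the cytosolic form, held 25.9, 23.9 and 26.3 TPM in leaves and 26.6, 24.7 and 26.7 TPM in PLBs, levels that overlapped. Their counts fell by 0.42 (SE 0.09, adjusted p = 0.0037), a call lost when libraries were scaled by total counts only (-0.17, adjusted p = 0.122). PGLP1 made up 85.4% ± 1.12 of the ortholog's TPM in leaves and 29.4% ± 3.14 in PLBs (SD, n = 3).

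The H protein of GDC showed the widest split. Unigenes named H protein held 242, 274 and 253 TPM in leaves and 4.76, 5.46 and 0.34 TPM in PLBs, a fall by 6.53 (SE 0.47, adjusted p = 8.16e-06). PLB replicate 3 held only 3 of their counts, and without it the fall was by 6.00 (adjusted p = 6.22e-07). Cluster CL2689 holds 5 of these unigenes, but 3 of its 8 contigs carry another ortholog and members held 46.9% of its counts. The whole cluster fell by 3.67 (SE 0.23, adjusted p = 4.16e-06), so the size of the fall depends on which of its contigs are counted. The cause of that difference was not tested. Unigenes named H protein 2 moved the other way, from 32.7, 38.2 and 30.8 TPM to 121, 132 and 111 TPM, a rise by 1.40 (SE 0.12, adjusted p = 1.96e-05). Among unigenes placed under GDC-H, H protein 2 went from 11.7% ± 0.73 of the TPM in leaves to 97.3% ± 2.06 in PLBs (SD, n = 3). These shares and the ratio that follows leave out the 3 contigs of CL2689 that carry another ortholog. The log2 ratio of H protein 2 to H protein was -2.92 ± 0.10 in leaves and 5.87 ± 2.15 in PLBs (exact permutation p = 0.1, n = 3, the smallest possible).

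Among oxidases, the forms named GLO5 and GLO1, after glycolate oxidases of rice, carried the leaf level. Of the 9 unigenes placed under GLO5, 3 open their NR entry with a general oxidase name and name GLO5 only later. GLO5 held 641, 666 and 656 TPM in leaves and 52.0, 45.5 and 51.7 TPM in PLBs and fell by 4.48 (SE 0.09, adjusted p = 1.35e-07). By the rule for contigs given below, 5 of its 8 tested unigenes were lower and 1 was higher, against 22.9% and 16.8% of all unigenes. The higher one, Unigene31824_All, had 0 counts in leaves and 85 in PLBs. GLO1 held 221, 232 and 218 TPM in leaves and 26.0, 16.6 and 17.1 TPM in PLBs and fell by 4.05 (SE 0.18, adjusted p = 8.51e-07). Their ratio differed little between tissues, at -1.55 ± 0.03 and -1.35 ± 0.31 (log2 of GLO1 to GLO5, exact permutation p = 0.4, n = 3).

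The remaining oxidases were higher as groups. The 4 unigenes whose NR entry names an oxidase but none of these numbered forms together went from 5.56, 5.80 and 5.15 TPM in leaves to 40.8, 67.2 and 53.7 TPM in PLBs, a rise by 3.11 (SE 0.22, adjusted p = 6.89e-06). Of the 3 tested singly, Unigene31829_All (3.43, adjusted p = 0.000246) and Unigene31827_All (4.72, adjusted p = 0.00069) were called higher, and Unigene31820_All was not called (-2.45, adjusted p = 0.00437). Those named GLO3 or GLO4 went from 19.6, 19.1 and 21.2 TPM to 36.7, 35.7 and 33.4 TPM, with a rise of 0.26 in counts (SE 0.09, adjusted p = 0.028). That call was lost without leaf replicate 1 (0.25, adjusted p = 0.102) or leaf replicate 2 (0.23, adjusted p = 0.107). Tested singly, Unigene10232_All was called higher (4.48, adjusted p = 9.97e-05) and Unigene13880_All was not called (-0.32, adjusted p = 0.0732).

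Of the SHMT forms, the mitochondrial one held 2841, 2578 and 2975 TPM in leaves and 340, 280.8 and 241 TPM in PLBs and fell by 4.03 (SE 0.15, adjusted p = 4.52e-07). SHMT4-named unigenes, after a cytosolic form of Arabidopsis, fell by 1.72 (SE 0.14, adjusted p = 1.41e-05), from 134, 132 and 119 TPM to 62.4, 56.4 and 42.0 TPM. SHMT6- or SHMT7-named unigenes had 34.9, 34.4 and 33.96 TPM in leaves and 50.0, 61.4 and 72.9 TPM in PLBs. The rise of 0.36 in their counts (SE 0.13, adjusted p = 0.038) was lost without any 1 of the leaf replicates or of PLB replicates 2 and 3, with adjusted p from 0.0864 to 0.105. The mitochondrial form took 90.1% ± 0.94 of SHMT TPM in leaves and 55.0% ± 4.59 in PLBs (SD, n = 3).

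**Figure D2:**
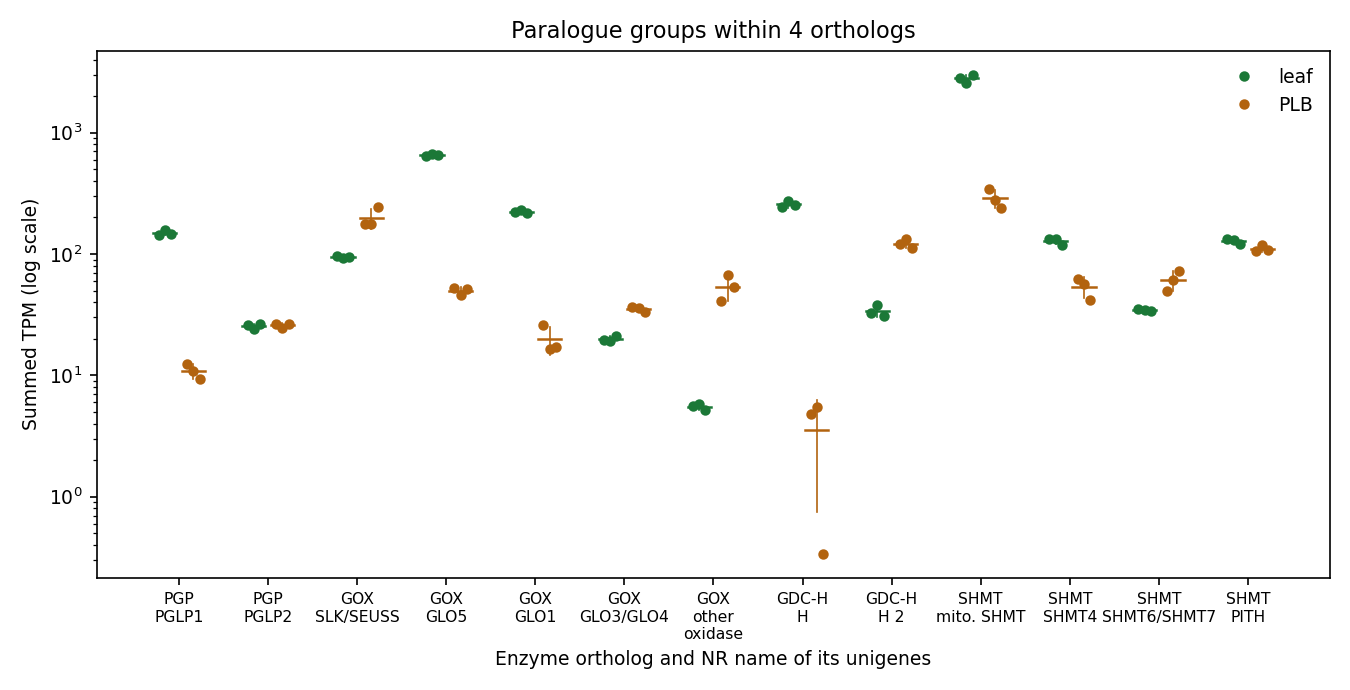
Summed TPM (log scale) of paralogue groups, named from their NR entry, within the PGP, GOX, GDC-H and SHMT orthologs, with 1 point per library, a bar at the mean and a line of 1 SD (cut short at the foot where it would pass 0). The leaf-rich forms PGLP1, GLO5, GLO1, H protein and mitochondrial SHMT dropped, while H protein 2 went from 33.9 to 121.5 TPM and the oxidases with no numbered name from 5.50 to 53.9 TPM.

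At the level of single contigs, 104 of the 126 unigenes had enough counts to be tested. With the stricter rule used for contigs (adjusted p not above 0.001, log2 change of 1 or more), 58 were lower in PLBs, 11 were higher and 35 passed neither, against 22.9% lower and 16.8% higher over 70383 unigenes (edgeR). Of the 91 tested unigenes that name their enzyme, 56 were lower, 5 were higher and 30 passed neither. The calls lower were found in every enzyme, from 2 of 2 tested for GDC-T, 4 of 4 for SGAT and 9 of 10 for HPR1 to 12 of 34 for GOX. Without leaf replicate 2 or 3, 36 and 35 were lower, and over all unigenes 7040 and 6687, against 16090 with all libraries. The number higher was 4, 3 and 3 without leaf replicate 1, 2 or 3 and 4 and 5 without PLB replicate 2 or 3. Over all unigenes the number higher went from 11858 to 5197, 4978, 4591, 5913 and 6534 in those settings. Summed over the 64 assembly clusters and lone unigenes that hold members, 24 of 54 tested were lower and 10 higher, against 22.9% and 17.4% of 36425 (10 became 5, 6, 5 and 6 without leaf replicate 1, 2 or 3 or PLB replicate 2). Over all clusters the number higher went from 6350 to 3390, 3118, 2904 and 4756 in those settings.

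Several contigs were abundant in leaves and had no counts in PLBs. For GDC-P, CL11330.Contig2_All (1524 bp) had 419, 482 and 491 TPM in leaves, from 24230 counts, and 0 counts in all PLB libraries. That is at least 9976-fold lower, taking 3 counts over the PLB libraries as the floor. The other contig of its cluster, CL11330.Contig1_All (3589 bp), kept 148, 91.5 and 83.8 TPM in PLBs from 572, 677 and 631 TPM in leaves (log2 fold change -3.06, SE 0.24, adjusted p = 3.14e-05). Summed over both contigs, the cluster fell by 3.47 (SE 0.24, adjusted p = 6.76e-06), so the absence held for 1 contig and not for the gene cluster.

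The same was seen for 3 other enzymes. CL4761.Contig2_All of PGP went from 1680 counts to 0 (at least 692-fold lower), CL421.Contig1_All of HPR1 from 3279 to 0 (at least 1350.1-fold) and CL5418.Contig10_All of GLYK from 829 to 0 (at least 341-fold). In SHMT the leading leaf contig, CL3002.Contig7_All, had 1000, 889 and 996 TPM in leaves and 0.11, 0.08 and 0.16 TPM in PLBs, which is 63629 against 7 counts. Its neighbour CL3002.Contig3_All had 205, 217 and 261 TPM in leaves and 192, 166 and 131 TPM in PLBs and was not called (-0.99, SE 0.19, adjusted p = 0.00187). In all, 15 member unigenes had counts in leaves and none in PLBs, 7 had the reverse and 4 had none in any library. The share of such unigenes over the whole series was not computed, so whether these counts are particular to the cycle was not tested. Contigs of 1 cluster share reads, and 91.7% of the members' expected counts above 0 were not whole numbers, so the split among contigs is an estimate.

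The leading contigs of the remaining enzymes followed their orthologs. Unigene6171_All, a GLO5 form, went from 454, 482 and 501 TPM to 8.41, 8.67 and 10.5 TPM (log2 fold change -6.22, SE 0.17, adjusted p = 2.01e-06). CL14378.Contig3_All of GGAT went from 275, 283 and 332 TPM to 1.62, 1.51 and 0.42 TPM (-8.46, SE 0.46, adjusted p = 8.64e-06). CL4215.Contig1_All of SGAT, with 91.0% of that ortholog's counts in leaves and 90.5% in PLBs, went from 254, 278 and 274 TPM to 18.5, 13.6 and 8.84 TPM. SGAT, HPR1 and GLYK thus rested on 1 cluster in both tissues, with over 99% of their counts.

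Of the 11 unigenes called higher, 6 do not name the enzyme of their ortholog. They were 5 SLK or SEUSS contigs under GOX, among them Unigene8565_All with 13.2, 8.76 and 9.49 TPM in leaves and 41.8, 43.7 and 64.3 TPM in PLBs, and 1 PITH domain contig under SHMT. The PITH contig CL10821.Contig1_All had 0 counts in leaves and 290 in PLBs, at least 78.3-fold higher. The others were CL13029.Contig1_All, the H protein 2 contig, at 32.0, 38.2 and 30.4 TPM in leaves and 121, 130 and 109 TPM in PLBs (1.33, SE 0.17, adjusted p = 0.00030), and 4 oxidase contigs.

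**Figure D3:**
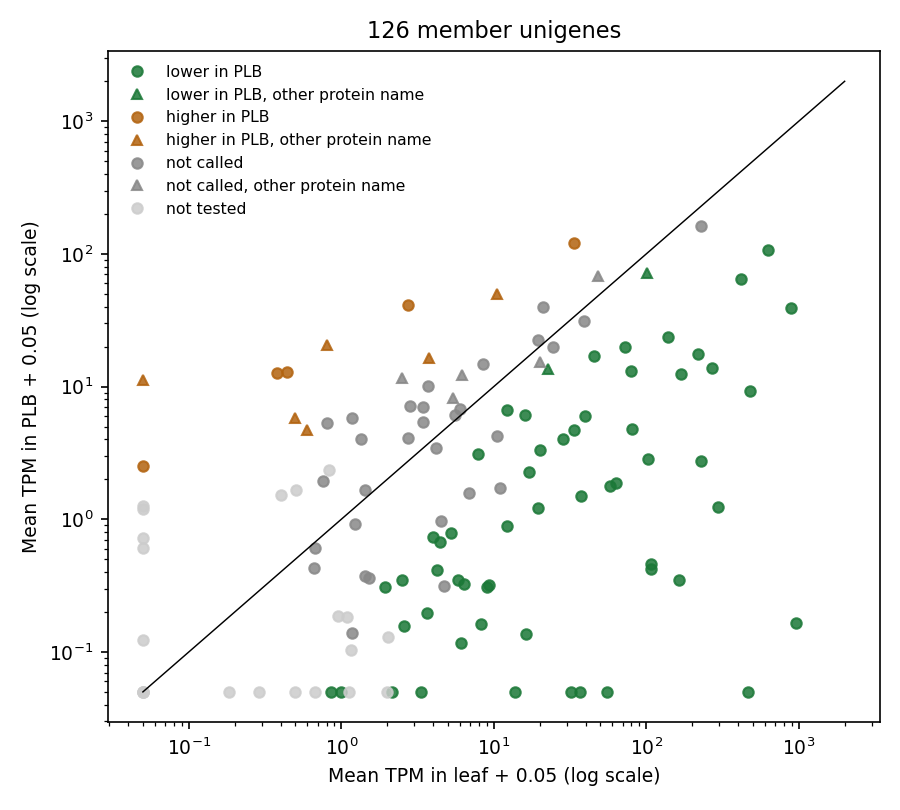
Mean TPM in PLBs against mean TPM in leaves (both log scales, 0.05 added) for the 126 member unigenes, with 1 point per unigene and the diagonal marking equal levels. Colours give the call and triangles the unigenes whose annotation names another protein; 58 called lower lie below the diagonal and 11 called higher above it, 6 of them triangles.

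Partners of the cycle were lower too, with an exception. Of 9 partner orthologs listed, 8 were found and tested, of which 7 were lower and 1 was higher. Over all tested orthologs, 38.6% were lower and 37.2% higher. Catalase, which breaks down the hydrogen peroxide that GOX makes, fell by 1.65 (SE 0.09, adjusted p = 1.96e-06) from 2174 ± 109 to 881 ± 26.3 TPM. Its contigs were uneven. CL9538.Contig1_All, named for isozyme 1 and with the most counts, was not called (-0.45, adjusted p = 0.149). CL9538.Contig2_All, also named for isozyme 1, rose by 2.37 (adjusted p = 4.06e-05), while CL14899.Contig9_All, named for isozyme A, fell by 8.69 (adjusted p = 1.98e-06). Dihydrolipoamide dehydrogenase, the L protein that GDC shares with other mitochondrial complexes, fell by 0.71 (SE 0.09, adjusted p = 0.000216), from 170 ± 5.38 to 123 ± 17.7 TPM. Its change was smaller than that of GDC-P, GDC-T or GDC-H.

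Ammonia from the complex is recaptured by glutamine synthetase and glutamate synthase. The glutamine synthetase ortholog fell by 1.18 (SE 0.10, adjusted p = 1.68e-05) and the ferredoxin form of glutamate synthase by 1.99 (SE 0.11, adjusted p = 1.96e-06). The first was uneven: CL15070.Contig4_All fell by 11.39 (adjusted p = 2.89e-06), while CL388.Contig6_All, named for a cytosolic isozyme, rose by 10.00 (adjusted p = 5.02e-06) and CL74.Contig3_All, named for the protein fluG, rose by 3.51 (adjusted p = 4.32e-06). The NADH form rose by 1.16 (SE 0.14, adjusted p = 0.000124), from 10.7, 11.9 and 9.64 TPM in leaves to 37.0, 25.3 and 29.6 TPM in PLBs. The alternative reductases of glyoxylate and hydroxypyruvate fell by 2.45 (glyoxylate/succinic semialdehyde reductase) and 2.12 (HPR2/3), less than HPR1. The DASS family, which holds the plastid carriers of 2-oxoglutarate and malate, fell by 3.38 (SE 0.18, adjusted p = 2.03e-06).

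The plastid exporter of glycolate and glycerate, PLGG1, was named first in the NR entry of 4 contigs, all of 1 cluster. CL10830.Contig1_All, the leading one, went from 58.6 ± 2.08 TPM in leaves to 5.81 ± 1.90 TPM in PLBs (SD, n = 3) and fell by 3.86 (SE 0.22, adjusted p = 9.85e-06), and CL10830.Contig4_All rose by 2.79 (SE 0.29, adjusted p = 0.000119). BOU, a mitochondrial carrier needed for GDC activity in Arabidopsis, had 11.4, 16.3 and 14.8 TPM in leaves and 4.44, 4.79 and 2.65 TPM in PLBs. No unigene was named BASS6.

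Rubisco, where the pathway starts, was lower as well, by 4.53 for the small chain (SE 0.15, adjusted p = 3.01e-07) and by 2.06 for the large chain (SE 0.11, adjusted p = 1.70e-06). The large chain rested on CL14361.Contig4_All (16389 bp), with 88.4% of its counts in leaves and 64.9% in PLBs. Unigene5466_All (11814 bp) was not called (-0.60, adjusted p = 0.162). Both match chloroplast sequences, the paper purified mRNA with oligo(dT) beads, and how well such beads recover this RNA was not tested. Counts were taken over whole contigs, and how many of them lay in the large chain itself was not tested. Small chain contigs did not all follow their sum: CL8611.Contig4_All fell by 8.09 (adjusted p = 6.23e-05), but Unigene39915_All went from 1.11 ± 0.27 to 149 ± 33.1 TPM (SD, n = 3) and rose by 6.57 (adjusted p = 6.39e-06). Of the folate one-carbon enzymes, 4 of 5 tested were lower, against 38.6% of all orthologs, and 1 was not called. In the phosphorylated serine pathway, which makes serine without photorespiration, no ortholog was called lower. Its phosphoglycerate dehydrogenase rose by 0.73 (SE 0.09, adjusted p = 0.000143) and its phosphoserine phosphatase by 0.48 (SE 0.09, adjusted p = 0.00181). In the phosphatase sum, CL7909.Contig1_All, which names the enzyme, was not called (0.02, adjusted p = 0.923), and Unigene6467_All, whose NR entry opens with an uncharacterized protein, rose by 5.19 (adjusted p = 6.57e-05). Its phosphoserine aminotransferase was not called (0.00, SE 0.26, adjusted p = 0.992).

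The glyoxylate cycle, a peroxisomal route from fat to C4 acids, makes glyoxylate with isocitrate lyase and uses it with malate synthase. Malate synthase rose by 5.86 (SE 0.49, adjusted p = 1.69e-05), from 4.09, 3.91 and 4.48 TPM in leaves to 96.8, 283 and 339 TPM in PLBs, and PLB replicate 1 was the lowest of these. Isocitrate lyase rose by 0.43 (SE 0.15, adjusted p = 0.0308), a call lost without any 1 of the leaf replicates or of PLB replicates 2 and 3, with adjusted p from 0.0604 to 0.0966.

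**Figure D4:**
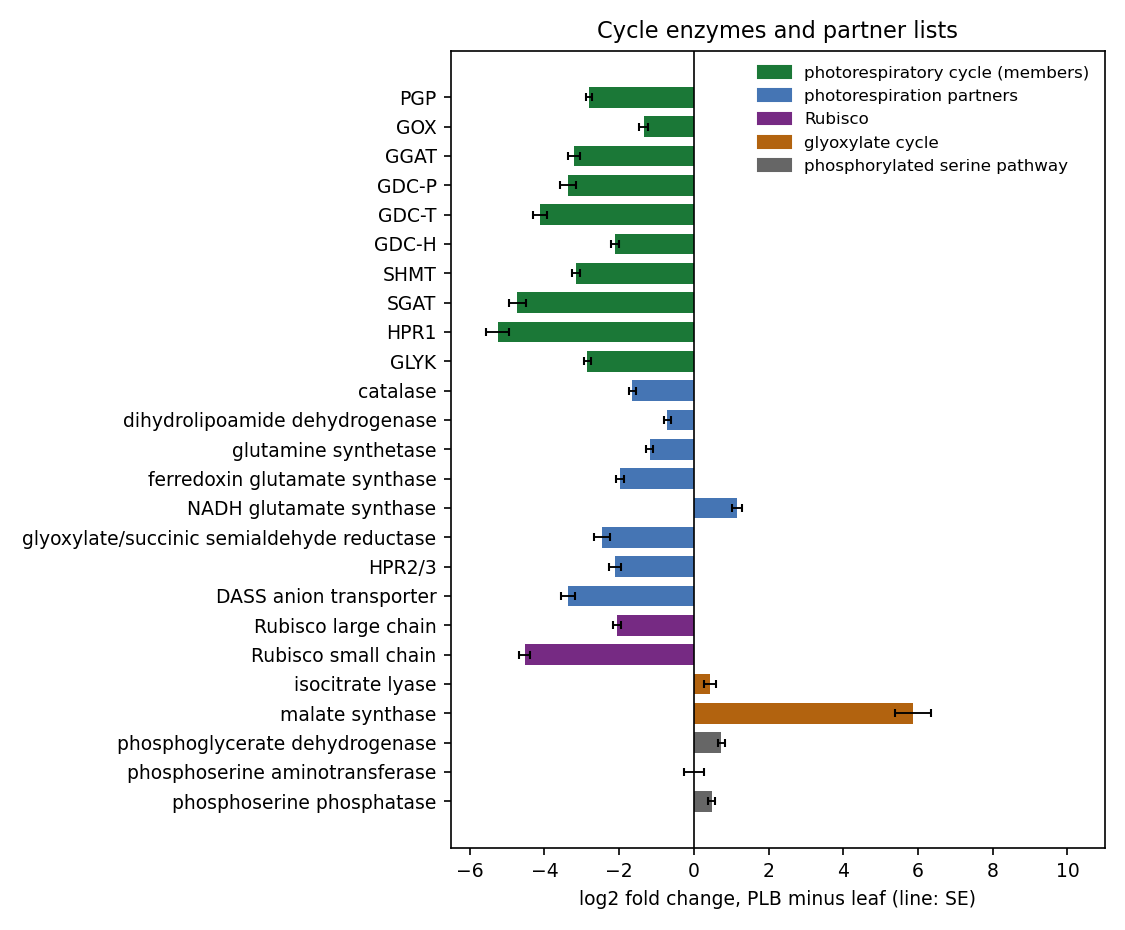
Log2 fold change of summed counts, PLB minus leaf, for the 10 cycle enzymes, the tested partner orthologs, Rubisco, the glyoxylate cycle and the phosphorylated serine pathway; bars give the edgeR estimate and lines its SE, with 3 libraries per tissue. The cycle enzymes run from -1.34 (GOX) to -5.26 (HPR1), while malate synthase lies at 5.86.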

How the data were processed

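The series compared leaf and PLB mRNA, sequenced on the BGISEQ-500 platform per the paper's methods, in 3 libraries per tissue. The authors assembled unigenes and deposited, for each library, the expected counts, TPM and FPKM of every unigene. The submitters' processing notes name Bowtie2 2.2.5, RSEM 1.2.8 and DESeq2, while the paper's methods name BLAST for mapping. Also deposited, for the whole series, were lengths, annotation and the authors' own log2 fold changes, p-values and q-values for PLB against leaf, which were not used. The FPKM given for the series equalled the library FPKM (largest difference 0) and was used only for this check. No sequences were used.

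Expected counts were taken per unigene or summed per first KEGG ortholog, per paralogue name or per assembly cluster, and then rounded to whole numbers. They were filtered (filterByExpr), scaled by TMM and tested by the edgeR 4.0.16 quasi-likelihood F test (R 4.3.3), with Benjamini-Hochberg adjustment over all features of each fit. Orthologs were called at an adjusted p under 0.05, and unigenes and clusters at an adjusted p of at most 0.001 with a log2 change of at least 1, the study's thresholds. SE is the size of the change over the square root of F. TPM was summed for levels, so fold changes of counts and of TPM can differ, by the scaling and by the lengths of the contigs that hold the reads. In the ortholog fit the leaf libraries had TMM factors from 0.914 to 0.924 and the PLB libraries from 1.08 to 1.09. Single values were compared by exact permutation (scipy 1.17.1). The script was tested on simulated data. Folds against a tissue at 0 used a floor of 3 counts over that tissue and cover counting error only.

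Named were all 10 enzymes, up to 3 unigenes with the most counts per enzyme, up to 2 per enzyme called against its ortholog, and the partner lists. The PLGG1 contigs and the single contigs of partners, Rubisco and the serine pathway lie outside this rule and were picked with values in view. The same holds for Unigene31824_All and for the oxidase contigs named GLO3 or GLO4 or without a numbered name. The members and lists were chosen with earlier results of these data known. Alternatives were DESeq2 1.42.0, RLE factors, library size only, no filter, limma 3.58.1 on log2 TPM with a pseudocount of 0.1 or 1, other memberships, other thresholds and leaving out each library. Other tools were Python 3.11.15, pandas 2.3.3, numpy 2.4.6, matplotlib 3.10.9 and version 1.17.8 of data.table.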

Additional observations from a re-analysis of the deposited data

How the results depend on the processing

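Each of the 10 enzymes was lower in PLBs and called under all 17 alternatives run for it. The count was 10 lower and 0 higher under all 18. With scaling by library size only, the median change over all orthologs went from 0.01 to 0.26 in log2 and the calls from 1584 lower and 1526 higher to 1195 lower and 2017 higher, and limma on TPM gave 1034 lower and 2251 higher. With library size only GOX fell by 1.10 and HPR1 fell by 5.01. Smaller falls came from limma on log2(TPM + 1), where GDC-H fell by 1.21, PGP fell by 2.21, GLYK fell by 2.29 and SHMT fell by 2.58, and from summing unigenes with the ortholog in any place, where HPR1 fell by 3.55. The size of a fall depended on membership: with the single unigene of most counts the log2 change was -13.30 for SHMT, -8.39 for GGAT, -6.81 for GDC-H and -6.14 for GOX. Leaving out each library in turn gave 35 to 46 member unigenes lower (58 with all libraries), 3 to 8 higher (11), 21 to 26 clusters lower (24) and 5 to 9 clusters higher (10). Calls over all unigenes also became fewer, with 6687 to 10943 lower (16090 with all libraries) and 4591 to 6879 higher (11858). Over all clusters, 4647 to 7294 were lower (8329) and 2904 to 4911 higher (6350). A call at an adjusted p under 0.05 with no fold required gave 70 unigenes lower and 16 higher, and 35 clusters lower. Over the whole series that call gave 26212 of 70383 unigenes lower and 25147 higher, and 13410 of 36425 clusters lower. The uncalled phosphoserine aminotransferase changed sign without leaf replicate 1 (-0.03), leaf replicate 2 (-0.04) or PLB replicate 2 (-0.31). The 4 GOX unigenes with another name were not called (0.36), but were with library size only (0.61, adjusted p = 0.0461) or without PLB replicate 2 (0.62, adjusted p = 0.000512). The cause of these changes was not tested. No paired analysis was possible because the labels give no replicate numbers shared between tissues. With 3 libraries per tissue, contigs of few counts could not be tested, and 22 of 126 were left out for this.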

Other observations

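The isocitrate lyase ortholog was uneven among its 6 unigenes. Unigene15510_All rose in PLBs from 0.71 ± 0.12 to 26.8 ± 16.0 TPM (SD, n = 3), a log2 change of 4.76 with an SE of 0.55 (edgeR, adjusted p = 0.000201), while CL6321.Contig4_All fell by 3.10 (SE 0.36, adjusted p = 0.00020). The other 4, all of cluster CL6321, were not called. Dihydrolipoamide dehydrogenase was also uneven: 3 of its 7 unigenes were lower and CL11508.Contig2_All rose from 0.03 ± 0.05 to 14.9 ± 3.01 TPM. By the rule for contigs, 22.9% of all tested unigenes were lower in PLBs and 16.8% were higher. The contigs in this paragraph were picked with values in view.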
